A study of Vitis vinifera with 8 samples.

Results

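The genes described here are 4 light signalling genes of grapevine, the photoreceptor genes CRY1 (VIT_18s0001g05680) and UVR8 (VIT_07s0031g02560) and the transcription factor genes HY5 (VIT_04s0008g05210) and HYH (VIT_05s0020g01090). They were found on the array by identifier, with 1 probe each, among 29798 VIT identifiers. The study's tables annotate the HYH identifier as a HY5 bZIP protein, and the names HY5 and UVR8 were given with the identifiers. Plants read blue light through cryptochromes such as CRY1 and UV-B through UVR8. In Arabidopsis, both activated receptors restrain COP1, the ubiquitin ligase that otherwise marks HY5 and HYH for degradation in the dark. The bZIP proteins HY5 and HYH then bind G-box type elements and switch on photomorphogenesis genes, among them genes of flavonoid synthesis. Much of this control acts on protein, which the arrays do not measure.

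Transcript levels were measured in leaves of in vitro plantlets of Vitis vinifera cv Sultana, kept at 25 °C with a photoperiod of 16 h, at 7 days after vacuum infiltration with Agrobacterium tumefaciens C58C1. The OXNAC33 group (4 arrays) received 35S:VviNAC33, which drives the senescence-related transcription factor gene VviNAC33 from a constitutive promoter, and the Control group (4 arrays) received the pK7WG2 vector with a sequence that codes for nothing. Per the labels the plants were 6 weeks old, and 8 were infiltrated for OXNAC33 and 7 for Control. The methods describe RNA pooled from the apical expanded leaves of a plant, and the OXNAC33 plants on the arrays were picked for the highest transgene level by quantitative PCR. Expression is transient, so that only a part of the leaf cells carries the construct, and in whole leaves fewer cells of a type and less RNA per cell cannot be told apart.

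The share of probes with signal well above background was 73.8% to 84.1% per array, and all 7 leaf markers listed reached that level on all 8 arrays. The mean log2 level of these markers lay between 1.39 and 2.69 in OXNAC33 and between 2.52 and 3.21 in Control. The markers are photosystem and light-harvesting genes and chlorophyll synthetase. All 7 had a negative difference, and 4 of 7 were lower in OXNAC33 at an unadjusted p under 0.05 in limma (3.82% of all probes were), with 0 past the adjustment (lowest adjusted p = 0.636). Among these 4 were the LHCB3 entries VIT_00s0181g00180 and VIT_00s0181g00200 (differences -1.76 and -1.80). They share an annotation and had close levels on each array, so that the 4 are not 4 separate observations. The study tabulated some of the markers for these same arrays, so that these counts are not independent evidence of a direction. The part of these markers in the results below was not tested. VviNAC33 (VIT_19s0027g00230), the check of the labels, had log2 levels of 1.15, 0.59, -0.13 and -1.14 in OXNAC33 replicates 1 to 4, against 0.14, -0.75, -1.15 and -1.37 in Control replicates 1 to 4. The groups overlapped, and the array that carries the label OXNAC33 replicate 4 was lower than Control replicates 1 and 2. The log2 difference of VviNAC33 was 0.90 (SE 0.52), higher in OXNAC33. It did not pass either (adjusted p = 0.666 in limma, p = 0.2 in a two-sided exact permutation of the arrays). Each date of scanning held both groups, with replicates 1 and 2 on scan date 1, replicate 3 on scan date 2 and replicate 4 on scan date 3. On scan dates 1 and 2 the groups lay on separate slides, so that group and slide cannot be told apart within those dates, and only the arrays of scan date 3 shared a slide. Levels are log2 intensities minus that of the 75th percentile of the array, so that 0 is the 75th percentile.

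The comparison of OXNAC33 with Control asked whether the light signalling genes respond to VviNAC33 in leaves. None of the 4 genes passed limma with group as the only term, at an adjusted p under 0.05 or at an unadjusted p under 0.05. The unadjusted call of HY5 changed with scan date as a block (unadjusted p = 0.00104, adjusted p = 0.205 in limma) and with the replicate number as a block (unadjusted p = 0.00359, adjusted p = 0.249 in limma). Without a block it changed when Control replicate 3 was left out (unadjusted p = 0.0302, adjusted p = 0.498 in limma). With scan date as a block and without OXNAC33 replicate 4 it changed as well (unadjusted p = 0.00163, adjusted p = 0.103 in limma). Over all 26579 probes tested, 0 passed the adjustment (0.0%) and 2064 (7.77%) the unadjusted threshold, and the methods' t-test gave 0 and 2013. In all 4 genes the groups overlapped, whereas they were apart in 4.12% of the probes. HY5 showed the largest difference of the 4 and was higher in OXNAC33 on each scan date. UVR8 was lower in OXNAC33 on 1 scan date and higher on the others, and CRY1 was almost the same in both groups.

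**Figure D1:**
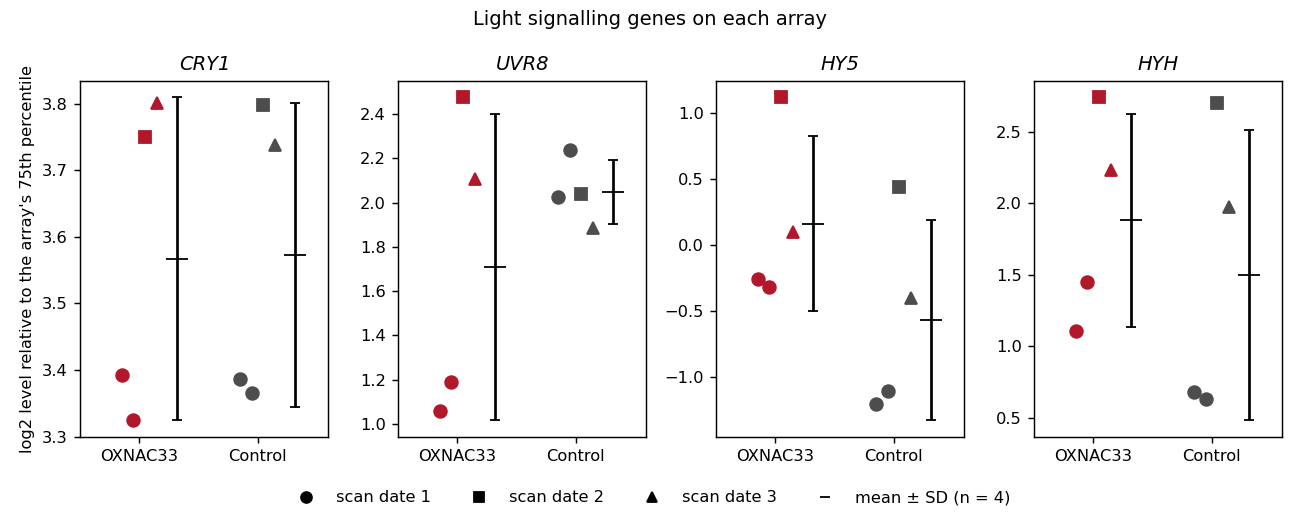
Log2 level of each gene relative to the array's 75th percentile (vertical axis, its own scale per gene) on the 4 OXNAC33 and 4 Control arrays, with symbols for the scan date and bars for the mean ± SD of each group. The CRY1 values of scan date 1 (3.33 to 3.39) lie below all others in both groups, and HY5 and HYH are lowest on scan date 1 and highest on scan date 2.

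CRY1, which encodes the blue light receptor, had log2 levels of 3.39, 3.33, 3.75 and 3.80 in OXNAC33 and 3.39, 3.36, 3.80 and 3.74 in Control (replicates 1 to 4). The groups covered nearly the same range. The means were 3.57 ± 0.24 in OXNAC33 and 3.57 ± 0.23 in Control (SD, n = 4 each). The log2 difference of -0.01 (SE 0.19) had an adjusted p of 0.994 in limma, and p was 1.0 in a two-sided exact permutation of the arrays. Its sign turned when single arrays were left out (-0.08 to 0.08). Within scan dates the difference was -0.02, -0.05 and 0.06.

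The spread of CRY1 lay between scan dates instead. Its SD over the 8 arrays was 0.22, at the 16.1 percentile of the tested probes, and 98.2% of its variance over arrays lay between scan dates, against a median of 44.3% over all probes. The arrays of scan date 1 averaged 3.37, those of scan date 2 averaged 3.77 and those of scan date 3 averaged 3.77. The test of scan date in limma did not pass for CRY1 (adjusted p = 0.127).

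UVR8 encodes the UV-B receptor. Its log2 levels were 1.06, 1.19, 2.48 and 2.11 in OXNAC33 and 2.02, 2.24, 2.04 and 1.89 in Control (replicates 1 to 4). The lowest values and the highest value were all on OXNAC33 arrays, while the Control arrays stayed close together. The means were 1.71 ± 0.69 in OXNAC33 and 2.05 ± 0.14 in Control (SD, n = 4 each). The log2 difference of -0.34 (SE 0.33) had an adjusted p of 0.773 in limma, and the exact permutation test gave p = 0.4.

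On scan date 1 UVR8 was lower in both OXNAC33 arrays than in both Control arrays, by 1.01 on average (log2 difference -1.01). On scan date 2 it was higher in OXNAC33 by 0.44 and on scan date 3 by 0.22. This order of signs was found in 6.7% of all tested probes. The interaction of group and scan date gave, in limma, an unadjusted p of 0.0121 (adjusted p = 0.383), and only the 4 arrays of scan date 1 gave it an error. Of the 26579 probes, 3305 had an unadjusted p under 0.05 for this interaction, and 0 had an adjusted one. Leaving out 1 array gave a UVR8 difference between -0.59 (without OXNAC33 replicate 3) and -0.12 (without OXNAC33 replicate 1). It was -0.17 without OXNAC33 replicate 2 and -0.47 without OXNAC33 replicate 4. With array weights it was -0.77 (unadjusted p = 0.0184, adjusted p = 0.143 in limma), and with slide as a random block it was -0.03. Under array weights 6556 of the 26579 probes were at an unadjusted p under 0.05.

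HY5 encodes the bZIP factor on which the light receptors converge. Its log2 levels were -0.25, -0.32, 1.12 and 0.10 in OXNAC33, against -1.20, -1.11, 0.44 and -0.40 in Control (replicates 1 to 4). Only Control replicate 3 exceeded any OXNAC33 array, and it exceeded replicates 1, 2 and 4. The means were 0.16 ± 0.66 in OXNAC33 and -0.57 ± 0.76 in Control (SD, n = 4 each), a fold of 1.66. The log2 difference of 0.73 (SE 0.45) had an adjusted p of 0.675 in limma, and the exact permutation test gave p = 0.2.

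Within scan dates the log2 difference of HY5 was 0.87, 0.68 and 0.50, each higher in OXNAC33. A difference of that sign on all 3 scan dates was found in 15.3% of the tested probes. When groups were exchanged inside each scan date, the exact permutation p was 0.0833, the lowest that 24 arrangements permit. A block for scan date in limma brought the SE to 0.13. Under that block 15.1% of all probes were at an unadjusted p under 0.05 and 0.0% at an adjusted one. When the array labelled OXNAC33 replicate 4 was also left out, the difference was 0.81 (adjusted p = 0.103). Without the block, leaving out OXNAC33 replicate 3 gave 0.41 and leaving out Control replicate 3 gave 1.07.

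HYH encodes the close relative of HY5, which acts beside it in Arabidopsis. Its log2 levels were 1.10, 1.45, 2.74 and 2.23 in OXNAC33 and 0.68, 0.63, 2.70 and 1.97 in Control (replicates 1 to 4). The groups overlapped widely, and each OXNAC33 array lay above the Control arrays of its scan date. The means were 1.88 ± 0.74 in OXNAC33 and 1.50 ± 1.01 in Control (SD, n = 4 each). The log2 difference of 0.38 (SE 0.55) had an adjusted p of 0.856 in limma, and the exact permutation test gave p = 0.6. Within scan dates it was 0.62, 0.04 and 0.26, and 15.3% of the tested probes were higher in OXNAC33 on all 3 scan dates. With scan date as a block the adjusted p of HYH was 0.338 in limma. Leaving out 1 array moved the difference between 0.10 (without Control replicate 2) and 0.79 (without Control replicate 3).

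**Figure D2:**
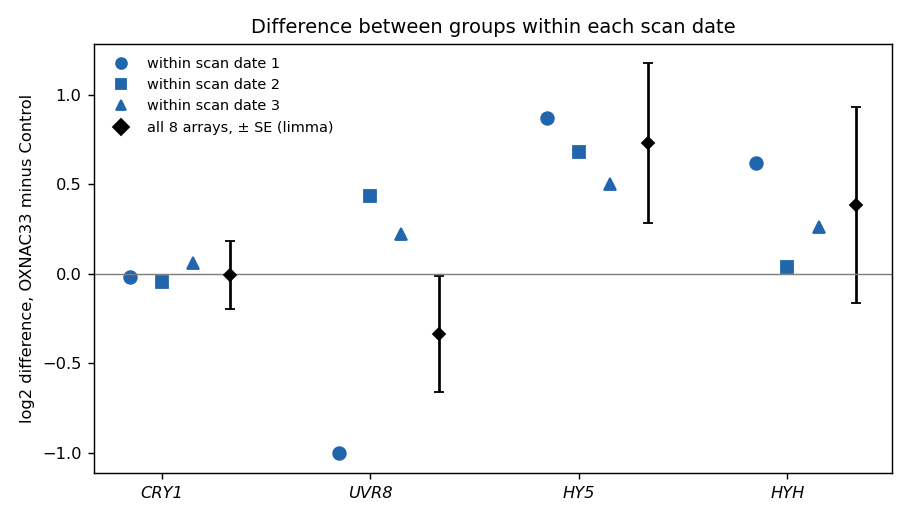
Log2 difference, OXNAC33 minus Control (vertical axis), of each gene within scan date 1 (4 arrays) and scan dates 2 and 3 (2 arrays each), beside the difference over all 8 arrays with its SE from limma. HY5 and HYH lie above 0 on each scan date, CRY1 lies close to 0, and UVR8 lies at -1.01 on scan date 1 and above 0 on the others.

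Both transcription factor genes differed between scan dates. The test of scan date in limma, with group in the model, gave an adjusted p of 0.0279 for HY5 and 0.0281 for HYH, and it called 7.69% of all tested probes. HY5 averaged -0.72 on scan date 1, 0.78 on scan date 2 and -0.15 on scan date 3. HYH averaged 0.97, 2.72 and 2.10 on scan dates 1, 2 and 3, the same order. UVR8 did not pass this test (adjusted p = 0.438). Scan date was read from the array files, and what else differed between these dates is not given in the sources used here. Of the variance over arrays, 72.8% in HY5 and 90.5% in HYH lay between scan dates, and 25.9% in HY5 and 5.86% in HYH lay between the groups.

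HY5 and HYH varied together over the 8 arrays. Pearson's r was 0.91 (exact permutation p = 0.00129, adjusted over 10 pairs p = 0.0129) and Spearman's rho was 0.88 (exact permutation p = 0.00724, adjusted p = 0.0724). Without OXNAC33 replicate 3 and Control replicate 1, the arrays farthest from the HY5 median, r was 0.89. The p-values above let arrays trade places between scan dates, where most of the variance of both genes lay. After the mean of each scan date was subtracted r was 0.83, a value that includes the difference between groups. Permuting only inside scan dates (96 arrangements, a test chosen after the data were seen) gave an exact p of 0.0833 (adjusted over 10 pairs p = 0.417), so that the relation did not pass within scan dates. By the same measure over arrays, HYH ranked 232 among 24165 VIT probes in likeness to HY5, so that many probes followed HY5 more closely.

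**Figure D3:**
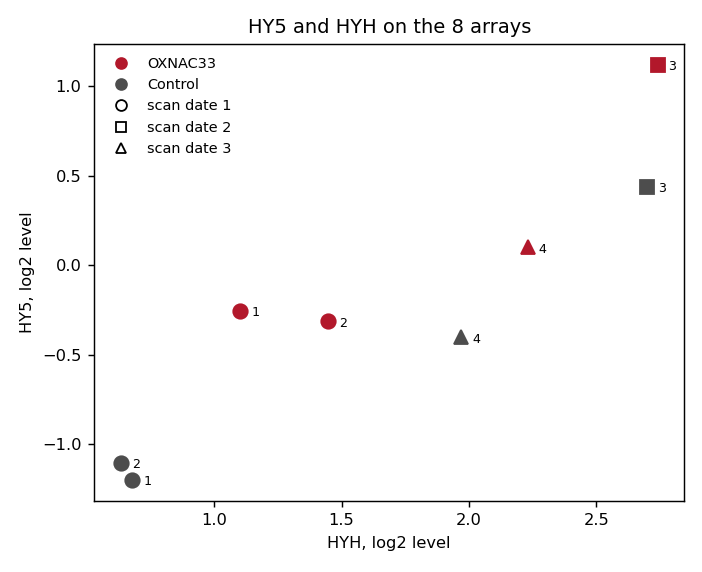
Log2 level of HY5 (vertical axis) against that of HYH (horizontal axis) on the 8 arrays, in colours for OXNAC33 and Control, with symbols for the scan date and numbers for the replicate. The arrays run from the Control arrays of scan date 1 at the lower left to the arrays of scan date 2 at the upper right (r = 0.91).

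The other pairs gave no relation past the adjustment. UVR8 had an r of 0.23 with HY5 and 0.35 with HYH (exact permutation, adjusted p = 0.679 and 0.479). These became -0.58 and -0.76 after scan date means were subtracted, and neither passed (exact permutation inside scan dates, adjusted p = 0.521 for each). Over the 8 arrays CRY1 had an r of 0.89 with HYH, 0.70 with HY5, 0.54 with UVR8 and -0.71 with VviNAC33. In the same order the exact permutation gave adjusted p = 0.0935, 0.173, 0.363 and 0.141. The CRY1 values fell into 2 clusters by scan date, so that an r over all arrays mostly compares those clusters. With scan date means subtracted, CRY1 had an r of -0.18 with HY5, -0.27 with HYH and 0.08 with UVR8. VviNAC33 had an r of -0.11 with HY5 over the 8 arrays (exact permutation, adjusted p = 0.796) and of 0.84 after scan date means were subtracted, where both were higher in OXNAC33 (exact permutation inside scan dates, adjusted p = 0.417).

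The probes most like each gene over the 8 arrays were ranked by Pearson's r, as a description of arrays that share scan dates. For HY5 the named genes were COP1 (VIT_12s0059g01420, r = 0.99), TIFY2A (VIT_18s0001g07730, r = 0.98) and a flavin-containing monooxygenase (VIT_07s0104g01250, r = 0.96). The COP1 probe ranked 2 among all 24165 VIT probes. For HYH they were a gene with a ubiquitin-associated domain (VIT_05s0029g01370), an ABC transporter (VIT_06s0004g08350) and a universal stress protein A gene (VIT_14s0066g01130), all at 0.99. For UVR8 they were a cinnamoyl-CoA reductase (VIT_14s0083g00320, r = 0.99), proteasome activator subunit 4 (VIT_19s0015g01270, r = 0.97) and a GNAT acetyltransferase (VIT_18s0041g01220, r = 0.95). For CRY1 they were a TraB protein (VIT_16s0100g00410, r = 0.99), a centromeric protein (VIT_04s0008g05610, r = 0.98) and a MYB divaricata gene (VIT_08s0007g01920, r = 0.98).

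COP1, the ubiquitin ligase that acts on HY5 in Arabidopsis, had log2 levels of 0.04, 0.00, 0.42 and 0.12 in OXNAC33 and -0.35, -0.32, 0.32 and -0.11 in Control (replicates 1 to 4). Only Control replicate 3 exceeded an OXNAC33 array, as in HY5. COP1 was named here for its likeness to HY5 on these same arrays, so that a shared order of arrays follows from the choice. Its log2 difference was 0.26 (SE 0.20, limma adjusted p = 0.723), and it was 0.35, 0.10 and 0.23 within scan dates 1, 2 and 3.

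The pathway around the 4 genes was read from 44 further light signalling genes named in the study's tables, of which 42 were tested. None passed the adjustment. At an unadjusted p under 0.05, 3 were higher and 3 lower in OXNAC33. Both directions together made 14.3% of the 42, against 7.77% of all probes (3.95% higher and 3.82% lower). The median log2 difference was -0.01 over the 42 genes and 0.04 over all tested probes. The count rests on single arrays, since it was 1 without Control replicate 1 or Control replicate 2, and 11 without OXNAC33 replicate 4. The count over all probes, 2064, moved in the same direction without these arrays. It was 1669 without Control replicate 1, 1383 without Control replicate 2 and 3001 without OXNAC33 replicate 4. Without OXNAC33 replicate 3 the light gene count fell to 3, while that over all probes rose to 2742. Some of the further light signalling genes were tabulated by the study for these same arrays, so that their count is not independent evidence of a direction.

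Among the phytochromes and their partners, which carry red light signals, 0 of 11 were higher and 2 lower at the unadjusted p. Phytochrome kinase substrate 1 (VIT_17s0000g06040), a partner of phototropin signalling in Arabidopsis, had log2 levels of -3.44, -3.24, -4.40 and -3.64 in OXNAC33, against -2.57, -2.23, -3.53 and -2.89 in Control (replicates 1 to 4). Each OXNAC33 array lay below the Control arrays of its scan date, while the groups overlapped. The log2 difference was -0.88 (SE 0.34, limma unadjusted p = 0.0327, adjusted p = 0.636), and -0.94, -0.87 and -0.75 within the scan dates. SUB1 (VIT_12s0057g01310), a negative regulator of light responses in Arabidopsis, had a difference of -0.48 (limma unadjusted p = 0.0370, adjusted p = 0.636). Phytochrome-associated protein 1 (VIT_09s0002g03410) had a difference of 0.51 that did not pass (unadjusted p = 0.210 in limma).

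Of 8 genes of COP1 and the COP9 signalosome, which supports the degradation of light factors in the dark, 0 were higher and 1 lower. That gene, COP1-interacting protein 7 (VIT_13s0067g00080), had levels of 0.63, 0.35, 0.35 and 0.75 in OXNAC33, against 1.11, 1.36, 0.83 and 0.81 in Control (replicates 1 to 4), without overlap. Its log2 difference was -0.51 (limma unadjusted p = 0.0267, adjusted p = 0.636), and it was -0.74, -0.48 and -0.06 within scan dates 1, 2 and 3. This gene is among those the study tabulated for these arrays. Another gene with the same annotation (VIT_05s0049g01280) had a difference of -0.07 (unadjusted p = 0.733 in limma). COP1-interacting protein 4 (VIT_03s0017g01690) had a difference of 0.47 that did not pass (unadjusted p = 0.280 in limma).

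Of 8 phototropism genes, 1 was higher and 0 lower. This gene, annotated as like non-phototropic hypocotyl 1 (VIT_01s0026g01590), the phototropin that senses blue light, had levels of 4.90, 4.73, 4.33 and 4.51 in OXNAC33, against 3.95, 3.98, 4.29 and 4.24 in Control (replicates 1 to 4). The groups did not overlap, but they lay 0.04 apart on scan date 2. The log2 difference was 0.50 (limma unadjusted p = 0.0230, adjusted p = 0.636), and this gene was also tabulated by the study for these arrays. An NPH3 gene (VIT_09s0002g05700), of the adaptor family that acts with phototropins, had a difference of -1.0 (unadjusted p = 0.0899 in limma), and of -1.47 (unadjusted p = 0.00682) without OXNAC33 replicate 4. The count in this role changed without that array. Without it 1 phototropism gene was higher and 4 were lower at an unadjusted p under 0.05 in limma, all 4 of them NPH3 genes. Over all probes 3001 were under that threshold without it, against 2064 with all 8 arrays. With scan date as a block 1 phototropism gene was higher and 2 were lower, and 15.1% of all probes were under the threshold.

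Of 9 B-box, CONSTANS-like and clock genes, which link light to daily and seasonal timing, 1 was higher and 0 lower. A CCT motif constans-like gene (VIT_06s0004g03870) had levels of -3.39, -3.46, -4.49 and -4.36 in OXNAC33, against -4.08, -4.91, -5.38 and -5.94 in Control (replicates 1 to 4). Its log2 difference was 1.15 (SE 0.43, limma unadjusted p = 0.0277, adjusted p = 0.636), and it was 0.62 after normexp background correction with quantile normalization. Within scan dates it was 1.07, 0.90 and 1.57. A B-box zinc finger gene (VIT_12s0059g02510) had a difference of 0.50 that did not pass (unadjusted p = 0.586 in limma). In this role the limma test of scan date called 4 of 9 genes (44.4%, against 7.69% of all probes), and it called 5 of the 42 genes (11.9%).

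The remaining roles were smaller. Of 2 genes for G-box binding factor 3, bZIP proteins that bind the same element as HY5, 1 was higher and 0 lower. This gene (VIT_15s0046g01440) had levels of 2.24, 1.78, 2.47 and 2.10 in OXNAC33 and 1.18, 1.15, 2.07 and 1.71 in Control (replicates 1 to 4), a log2 difference of 0.62 (limma unadjusted p = 0.0409, adjusted p = 0.636). The other (VIT_02s0025g01020) had a difference of 0.52 (unadjusted p = 0.137 in limma). Of 4 chalcone and flavonol synthase genes tested, enzymes of flavonoid synthesis whose genes HY5 activates in Arabidopsis, 0 were higher and 0 lower at the unadjusted p. Chalcone synthase 2 (VIT_14s0068g00920) had levels of -2.45, -0.83, 0.69 and 0.51 in OXNAC33 and 1.18, -0.41, 0.11 and 1.20 in Control (replicates 1 to 4), a difference of -1.04 (SE 0.72, limma adjusted p = 0.705). A flavonol synthase gene (VIT_10s0003g02430) had a difference of 0.73 (SE 0.33, limma adjusted p = 0.636), which was 0.30 after normexp background correction with quantile normalization. Within scan dates it was 1.53, 0.11 and -0.24. Genes of chalcone synthase can share sequence between copies, so that single copies are uncertain.

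**Figure D4:**
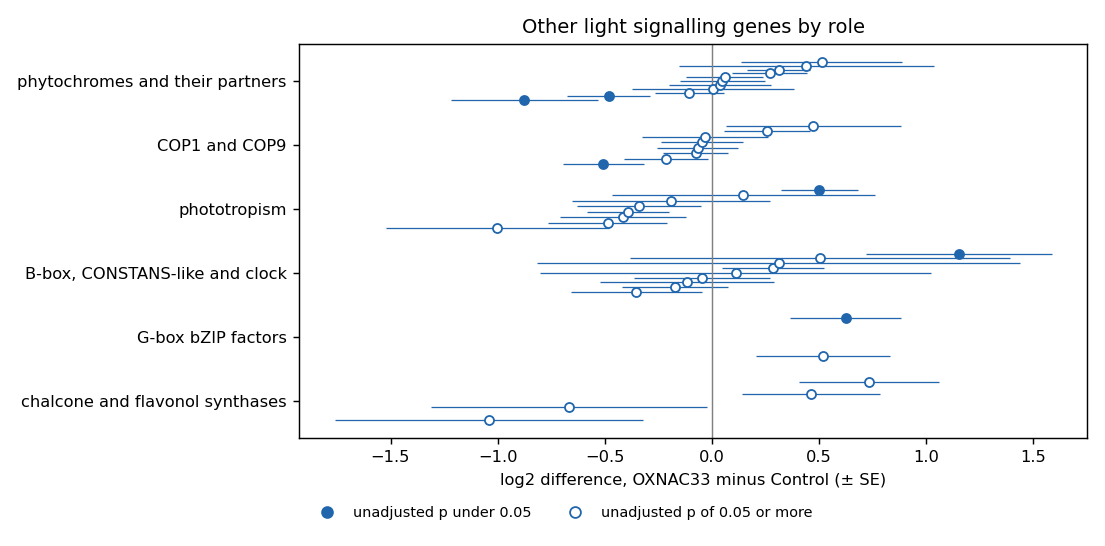
Log2 difference, OXNAC33 minus Control, with its SE from limma (horizontal axis) for the 42 further light signalling genes tested, grouped by role. Filled points, 3 above 0 and 3 below, mark an unadjusted p under 0.05, and none passed the adjustment.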

How the data were processed

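Each array came from 1 plant. Per the file headers, the authors scanned the 1-colour arrays with Agilent Feature Extraction 10.5.1.1, which wrote a processed intensity per spot, the median intensity of spot and background, and marks for spots well above background or outlying. A further table deposited by the authors holds the same intensity times 1 factor per array. Levels were log2 of the processed intensity minus that of the 75th percentile of the 34369 probes that are not controls. The 140 outlying spots were left out and 0 were saturated. For the 4 genes the software's error was about 10.0% of the signal.

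Probes well above background on at least 4 arrays (26579) were compared with limma 3.58.1 (R 4.3.3). The model held the group alone, and p-values were adjusted by Benjamini-Hochberg over all probes. Exact permutation tests (scipy in Python) were two-sided and cannot go below p = 0.0286 for 4 against 4 arrays. The script was tested on simulated data. Deviations from group means of arrays with the same replicate number correlated at 0.490, 0.253, 0.496 and 0.102, all above 0.1. The sample titles give these numbers, and they follow the scan dates. The replicate number was used as a block only in an alternative, and the main model did not pair the arrays. Arrays with different numbers correlated at -0.634 to 0.499, so that single numbers are not told apart by this check. Genes and lists were chosen with earlier results of these data known. Named were the 4 genes, VviNAC33, the genes of each role at an unadjusted p under 0.05 with the 2 largest differences, and the 3 named genes most like each of the 4. The light list came from the study's tables (membership only). Alternatives were normexp correction (offset 50), quantile normalization, other filters, scan date, slide or replicate number as a block, array weights, the second table, the methods' t-test and leaving out each array. The methods and the labels differ on the age of the plants, and the labels were followed. Probe sequences and coordinates were not used here.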

Additional observations from a re-analysis of the deposited data

Results flagged for a closer look

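The 4 genes held no array that stood apart from the other 3 of its group by Dixon's criterion at the 95% level, which compares the gap to the nearest array with the range of the group. Over 94 groups of 4 arrays examined (the 4 genes, VviNAC33 and the further light genes), 6 held such an array, where chance gives about 1 in 20 (4.7). In the array labelled OXNAC33 replicate 4, SUB1 (VIT_12s0057g01310) had a level of 0.48 against -0.14 to -0.07 in the other OXNAC33 arrays (gap 0.888 of the range), inside the Control range of 0.30 to 0.75. In the same array a COP1-interacting protein gene (VIT_09s0002g00740) had 0.16 against -0.49 to -0.47 (gap 0.973). In OXNAC33 replicate 3, an NPH3 gene (VIT_00s0361g00090) had -0.99 against -0.14 to -0.01 (gap 0.862), and another (VIT_07s0005g06300) had 0.42 against -1.36 to -1.06 (gap 0.836). In Control replicate 3, PHYC (VIT_12s0057g00980) had 0.71 against 0.41 to 0.46 (gap 0.860) and FAR1-related sequence 4 (VIT_09s0054g01830) had 0.16 against -0.20 to -0.17 (gap 0.918).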

How the results depend on the processing

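None of the 4 genes passed the adjusted threshold of limma under any of 19 alternatives each, and UVR8, HY5 and HYH kept their sign in all of them. CRY1 turned to 0.0218 with slide as a random block. Leaving out 1 array gave -0.083 to 0.0756 for CRY1, -0.59 to -0.12 for UVR8, 0.41 to 1.07 for HY5 and 0.10 to 0.79 for HYH. The adjusted p of HY5 lay between 0.103 and 0.969 over the alternatives. With the replicate number as a block, 2 probes passed the adjustment and 3308 were at an unadjusted p under 0.05, and it changed no adjusted call of the 4 genes, while HY5 came under the unadjusted threshold (unadjusted p of 0.00359, adjusted p = 0.249 in limma). The unadjusted count was 4005 with scan date as a block, 6556 with array weights and 5115 with scan date as a block and without OXNAC33 replicate 4, a setting chosen after the data were seen. Leaving out 1 array gave 0 to 2 adjusted calls (2 without OXNAC33 replicate 2) and 1081 to 3001 unadjusted ones. The count of the further light genes at the unadjusted p, 6, was 3 with slide as a random block, 13 with array weights, 13 with scan date as a block and without OXNAC33 replicate 4, and 1 to 11 when 1 array was left out. With 4 arrays per group, and scan dates 2 and 3 holding 1 array of each, these data cannot separate scan date from whatever else differed between those arrays. All 4 probes were well above background on all 8 arrays, so that dim signal did not limit them.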
